A study of Mus musculus with 10 samples.

Results

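The cytosolic ribosomal proteins are the protein parts of the ribosomes that translate nuclear-encoded mRNA. They were chosen by name from a table of 15075 genes in interscapular brown adipose tissue: every symbol that begins with Rpl or Rps and a digit, or with Rplp, together with Rpsa, leaving out the ribosomal S6 kinases. This gave 84 genes. Of these, 43 encode proteins of the large subunit, 3 encode the stalk of the large subunit, 30 encode proteins of the small subunit, and the other 8 are paralogs or share only the name. The 76 genes of the first 3 classes are called core members here. Fau and Gnb2l1 also encode ribosome constituents but carry other names, and were followed separately.

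The study profiled polyadenylated RNA from brown adipose tissue of adult mice that lacked cardiolipin synthase in fat cells, to ask how loss of this mitochondrial lipid changes gene expression. Both groups were C57BL/6 mice aged 20 weeks and kept at room temperature, and both carried the floxed allele. Control mice (called wild-type in the labels) were homozygous for a Crls1 allele with exon 4 flanked by loxP sites and had no Cre. AdCKO mice carried the same alleles and a Cre transgene driven by the adiponectin promoter, which is active in fat cells, so that other cells of the tissue kept Crls1. Each group had 5 libraries, each described as a different mouse.

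Each ribosome has a large subunit, which forms peptide bonds, and a small subunit, which reads the mRNA, and nearly all of their proteins are present in a single copy per particle. The acidic stalk proteins, which recruit the translation factors, are the exception. Ribosomal protein genes are known for being expressed together in every cell, in larger amounts in cells that grow or divide. Their mRNAs begin with a run of pyrimidines, the terminal oligopyrimidine or TOP motif, through which mTOR signaling controls their translation.

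Sequence around the start of transcription was read from RefSeq for the assembly GRCm38.p6 and matched 64 of the 84 members by symbol. The longest run of C and T between 50 bases before and 50 bases after an annotated start was recorded on the gene's own strand, and where a gene had several starts the longest run was kept. Windows of 30 bases are shown for 8 members to which the results below return, with the run in capitals. Rplp0 is the stalk base, and Rpl10a, Rpl13a, Rpl10 and Rps3a1 rose more than the median member. Rps19, Rplp2 and Rpl7a were not called higher in the values as normalized by the authors. The size of their changes depended on the scaling between libraries, but Rps19 was not called higher at the same total in every library either.
Rplp0: ccgcctggTTCTCCTataaaaggcacacgc
Rpl10a: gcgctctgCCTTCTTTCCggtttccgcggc
Rpl13a: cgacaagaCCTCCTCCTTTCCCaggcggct
Rpl10: cgtgagcaggcgtgggagcgTCTCTTTTCC
Rps3a1: agacggcgCTCCCCgcccggctcgcgttaa
Rps19: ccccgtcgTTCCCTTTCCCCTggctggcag
Rplp2: cgtcagcgTCTTCCTTTCgccgccggacgc
Rpl7a: ccccacaaTTCCCTCTTCTTTCTTTCTCCa
In GRCm38.p6 these windows are chr5:115559470-115559499 on the plus strand for Rplp0, chr17:28328574-28328603 on the plus strand for Rpl10a, chr7:45128722-45128751 on the minus strand for Rpl13a, chrX:74270836-74270865 on the plus strand for Rpl10, chr3:86142619-86142648 on the minus strand for Rps3a1, chr7:24884623-24884652 on the plus strand for Rps19, chr7:141447638-141447667 on the plus strand for Rplp2 and chr2:26910785-26910814 on the plus strand for Rpl7a. The runs ranged from 6 bases in Rps3a1 and 7 in Rplp0 to 21 in Rpl7a.

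A run of at least 8 pyrimidines was present in 53 of the 64 matched members (82.8%) and in 37.4% of 11252 other genes of the table. The 6 letters CTTTCC, which are all pyrimidines and so are not independent of such runs, were found on the gene's own strand in 20 members (31.2%) against 5.04% of the other genes, and on either strand in 22 members (34.4%) against 9.70%. Rps19, Rpl10a and Rpl13a held CTTTCC, and Rplp2, Rpl10 and Rpl7a did not. Within the core members, a longer run did not go with a larger change between the genotypes. The 47 tested members with a run of at least 8 had a median change of 0.54 on the log2 scale and 34 were called higher. The 9 with a shorter run had a median of 0.61 with 8 called higher. Of all genes tested, 25.6% were called higher. These are matches of letters, and which base is transcribed first in brown fat was not measured.

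The values are reads per kilobase of counted exon, normalized by the authors across the 10 libraries, and their depth before normalization is unknown. The normalized totals were 7615403 to 8171138 reads in Control and 5419800 to 5843024 in AdCKO. Crls1 itself fell from 1060.2 ± 191 to 217 ± 26.4 normalized reads per kb (mean ± SD, n = 5), in step with the labels. The tissue held its defining transcript, Ucp1, between 24203 and 46570 in Control and between 7895 and 18828 in AdCKO. A list of 12 adipocyte genes held Ucp1 and also general fat cell genes such as Adipoq, Fabp4 and Lep. Of these, 6 were called lower (50%, against 28.0% of all genes) and 0 higher (against 25.6%). Their sum was 214021 to 241473 in Control against 134656 to 158523 in AdCKO. Markers of some other cells differed between the groups. Sums of endothelial genes overlapped (1728 to 2135 in Control, 1788 to 2507 in AdCKO), with 3 of 8 called higher. Those of erythroid genes also overlapped (647 to 893 in Control, 677 to 792 in AdCKO), with 0 of 2 called. The summed level of 11 macrophage genes was between 506 and 1468 in the Control libraries but between 7391 and 9975 in AdCKO, and all 11 were called higher. The sum over 12 cell cycle genes was between 188 and 226 in the Control libraries but between 352 and 378 in AdCKO, with 10 of 10 tested genes called higher. Skeletal muscle genes were high in 3 AdCKO libraries, replicates 1, 2 and 4, where 14 genes summed to 7961, 30910 and 11983, and low in AdCKO replicates 3 and 5 (318 and 325) and in Control (499 to 534). Lymphoid genes stood apart in AdCKO replicate 1, with a sum of 454 against 90.4 to 151 in the other AdCKO libraries and 69.1 to 118 in Control. Only 1 of 14 muscle genes and 1 of 8 tested lymphoid genes were called higher, where 25.6% of all genes were. The part of these cells in the results below was not tested, and in bulk tissue a change in the number of cells of a type cannot be told apart from a change in RNA per cell.

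The share of each library taken by ribosomal protein mRNA was about double in AdCKO. It was 0.384, 0.428, 0.449, 0.409 and 0.433% of normalized reads in Control replicates 1 to 5 and 0.928, 0.843, 0.908, 0.870 and 0.772% in AdCKO. The groups did not overlap, with a wide gap between them. The means were 0.421 ± 0.0251% and 0.864 ± 0.0612% (SD, n = 5), a ratio of 2.05, and this share does not depend on how the libraries were scaled to each other. With the 3 libraries high in muscle genes left out the ratio was 2.00. Part of the ratio lay in the denominator: without the 100 most abundant other genes in the total it was 1.68. Summed per kb, the members reached 39151 to 47162 in Control and 59823 to 66575 in AdCKO, a ratio of 1.46 on the authors' scale.

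The proteins of the mitochondrial ribosome, which are encoded by other genes, did not share this pattern. Their 77 mRNAs took 0.484 to 0.559% of normalized reads in Control and 0.433 to 0.499% in AdCKO, and on the authors' scale 61 of them were called lower, against 28.0% of all genes, and 1 higher, with a median of -0.54. The cytosolic set was thus the smaller of both shares in each Control library and the larger in each AdCKO library.

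**Figure D1:**
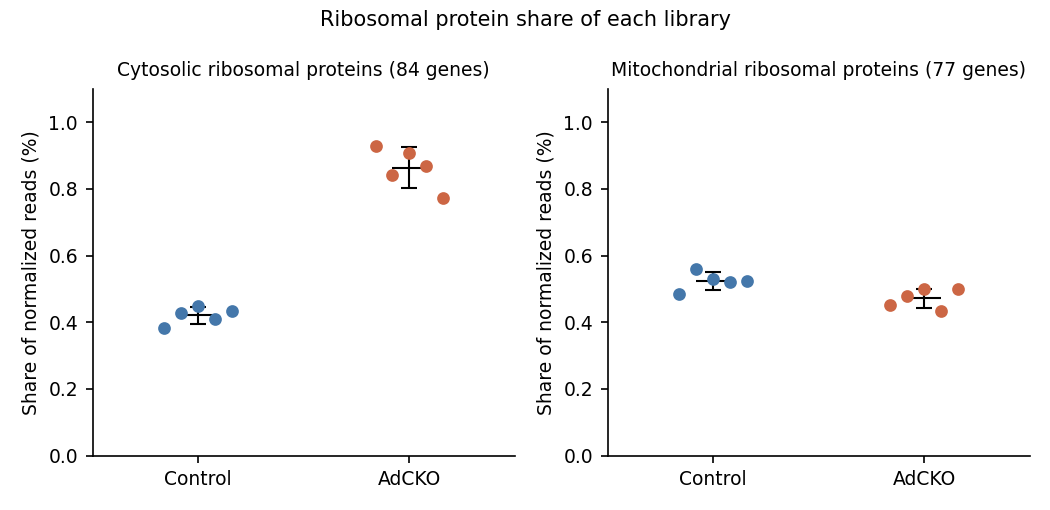
Share of normalized reads (%) in each of the 10 libraries for the 84 cytosolic ribosomal protein genes (left) and 77 mitochondrial ribosomal protein genes (right), with 1 point per library and black bars for mean and SD. The cytosolic share lies between 0.384 and 0.449% in Control and between 0.772 and 0.928% in AdCKO, with no overlap, while the mitochondrial shares overlap.

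The rise was spread over most of the members. Of the 83 members tested with limma, 60 (72.3%) were called higher in AdCKO at an adjusted p under 0.01 (Benjamini-Hochberg over 11244 genes), where 25.6% of all genes tested were called higher. Only Rps19 was called lower (1.20%), where 28.0% of all genes were. The remaining 22 members did not pass the test, and 17 of these had a positive change. Rpl21, at 5.81 ± 0.354 in Control, was too low to be tested.

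The changes were moderate in size. The median over the 83 members was 0.56 on the scale of log2(normalized reads per kb + 1), which is the scale of all changes given here and understates those of low genes, and the median over all genes was -0.01. Among the 75 tested core members the median was 0.57, with quartiles of 0.29 and 0.70. In 4 members the change was above 1. Of these, Rpl3l passed the filter only through AdCKO, with means of 6.84 in Control and 38.3 in AdCKO. In 58 of the 83 members the groups did not overlap and AdCKO was higher, against 24.5% of all genes, and in 1 member AdCKO was lower without overlap, against 26.4%. Where every library was rescaled to the same total, the median over all genes moved to 0.46 and that over the members to 1.04, so the distance between them was 0.57 on the authors' scale and 0.58 at the same total, and 80 members were called higher and 0 lower, where 60.6% and 9.77% of all genes were. With the 3 AdCKO libraries high in muscle genes left out, 40 members were called higher, all among the 60, and 0 lower, where 18.8% and 19.7% of all genes were, and the members' median was 0.52.

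**Figure D2:**
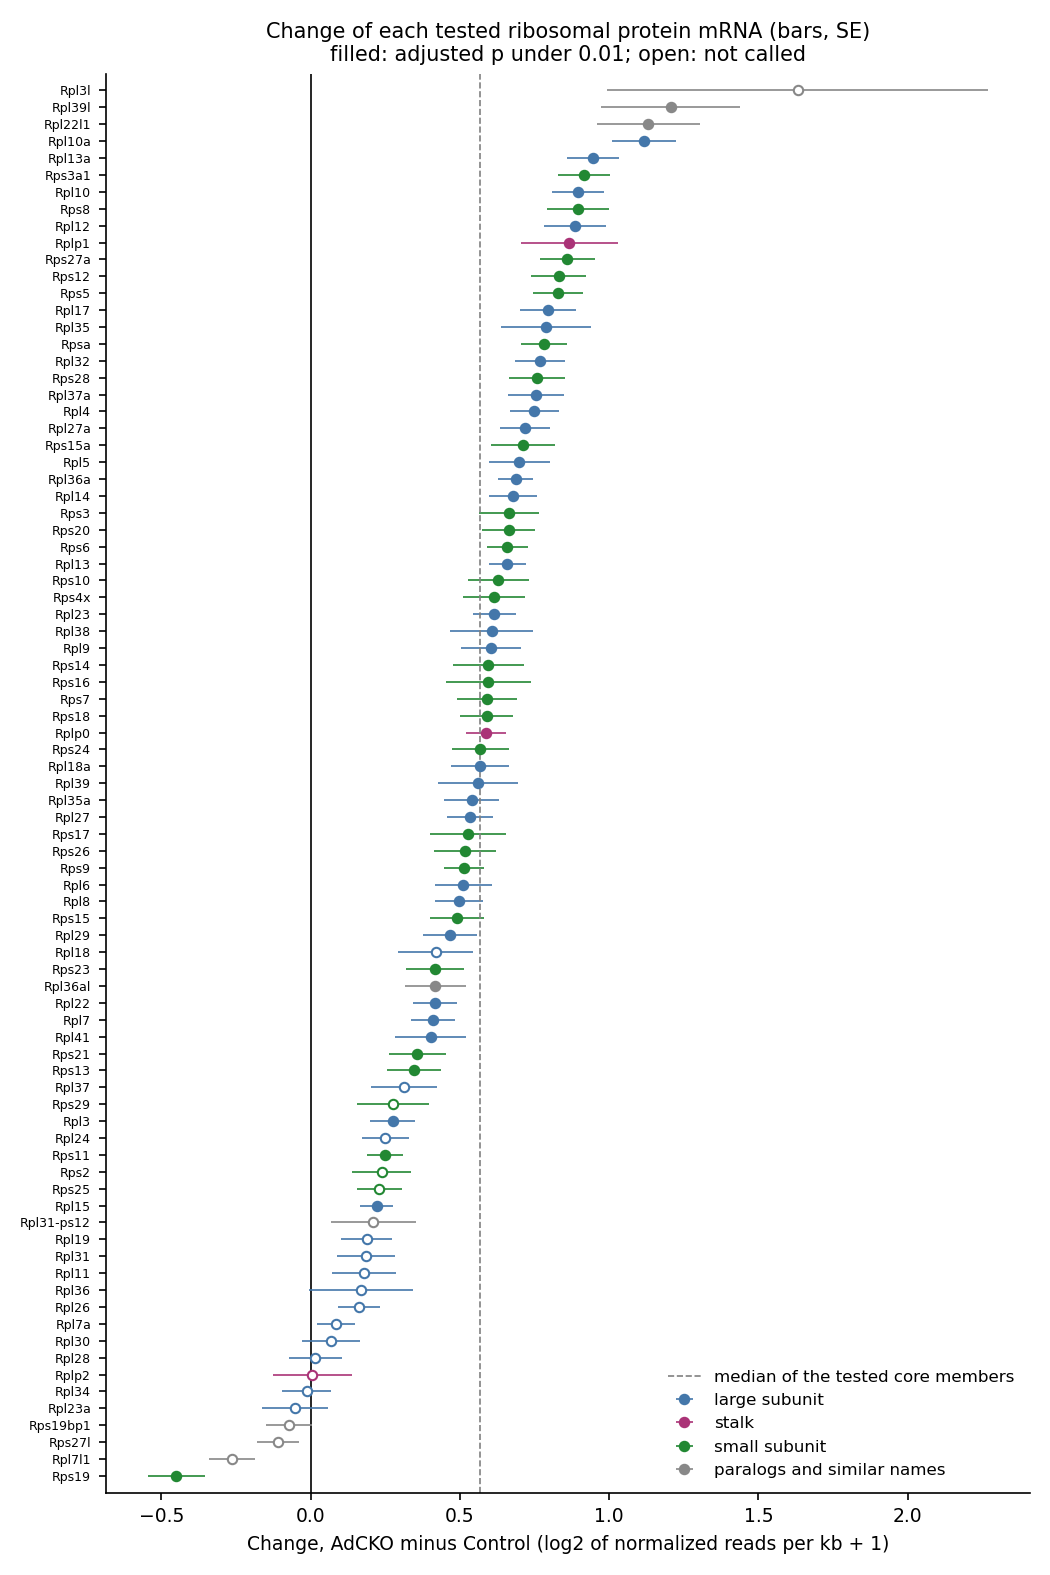
Change of each of the 83 tested members between AdCKO and Control (log2 of normalized reads per kb + 1, points with SE), ordered by size and colored by class, with filled points for adjusted p under 0.01. The dashed line is the median of the core members at 0.57, whose quartiles are 0.29 and 0.70, and Rps19 is the only filled point below 0.

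In the large subunit, 29 of 42 tested members were called higher (69.0%, against 25.6% of all genes). None was called lower, where 28.0% of all genes were, and the median change was 0.52. Rpl10a (chr17:28465416-28467978, plus strand, in mm9, the build of the files), a protein of the side of the large subunit where used tRNA leaves, showed the largest rise of any core member. Its level was 167, 175, 184, 166 and 185 normalized reads per kb in Control and 405, 353, 499, 358 and 315 in AdCKO. The lowest AdCKO library was thus well above the highest Control library. The change was 1.12 ± 0.107 (SE) on the log2 scale, with an adjusted p of 2.17e-06 in limma and a p of 0.0079 in the exact two-sided permutation test, the smallest that 5 against 5 allows.

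Rpl13a, which also serves in a complex that represses translation in activated myeloid cells, stood at 578, 755, 687, 724 and 736 in Control and at 1462, 1320.0, 1422, 1263 and 1221 in AdCKO. Rpl10, which joins the large subunit late in its assembly, stood at 717, 637, 761, 622 and 713 in Control and at 1418, 1213, 1341, 1361 and 1099 in AdCKO. Neither gene showed overlap between the groups. Their changes were 0.94 ± 0.087 and 0.90 ± 0.088, with adjusted p-values of 1.50e-06 and 2.52e-06 in limma. Rpl36a, the member with the smallest p, lay between 211 and 223 in Control and between 314 and 368 in AdCKO, a change of 0.69 ± 0.059. Rpl13 went from 388 ± 16.2 to 613 ± 35.5.

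Of the most abundant large subunit mRNAs, Rpl4 was 1249 to 1436 in Control and rose to 1942 to 2499 in AdCKO, a change of 0.75. Rpl8 rose from 1574 ± 143 to 2218 ± 132 (SD, n = 5), a change of 0.50. Rpl41, which encodes a peptide of very few residues, was less clear. It was 1665, 2442, 2336, 1617 and 1945 in Control and 2558, 2693, 2633, 2731 and 2426 in AdCKO, where 1 AdCKO library lay below the highest Control library. Its adjusted p of 0.0097 was just under the threshold, and leaving out any of 8 of the 10 libraries in turn moved it above.

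Rpl5 and Rpl11, which bind 5S ribosomal RNA together and hold Mdm2, the ubiquitin ligase of p53, when assembly is disturbed, did not move alike. Both were chosen after their values were seen. Rpl5 was 172 to 228 in Control but 271 to 381 in AdCKO, a change of 0.70 (adjusted p = 7.02e-05, limma). Rpl11 was 583 to 887 in Control and 726 to 918 in AdCKO, a change of 0.18 with overlap (adjusted p = 0.164, limma).

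Of the 13 large subunit members that were tested and not called, Rpl7a is shown for its even values. It was 390.1, 382, 386, 347 and 399.8 in Control and 439.8, 407, 383, 408 and 384 in AdCKO. The groups overlapped, and the change was 0.09 ± 0.064 (adjusted p = 0.256, limma), or 0.57 where the libraries were rescaled to the same total. Rpl23a, which lies at the exit of the peptide tunnel and was chosen after its values were seen, had values of 260.4 to 362 in Control and 264 to 356 in AdCKO. Rpl28, which was also chosen after its values were seen, stood at 35.9 ± 3.69 and 36.3 ± 3.13.

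Of the 3 stalk genes, 2 were called higher and 1 was not called, where 25.6% of all genes were called higher. Rplp0 (chr5:116009476-116013738, plus strand, mm9), also known as 36b4, anchors the stalk and was the reference gene to which mouse mRNA measured by quantitative PCR was normalized in the study. It was 1352, 1464, 1480.3, 1407 and 1444 in Control and 2318, 2016, 2138, 2200.2 and 2077 in AdCKO. No library of one group reached the other, and the spread within each group was small. The mean rose 1.50-fold and the change was 0.59 ± 0.066 (adjusted p = 7.69e-06, limma), close to that of the median core member. With all libraries rescaled to the same total the change was 1.07, and under quantile normalization it was 1.05.

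Rplp1 and Rplp2 form the dimers that hang from Rplp0. Rplp1 was the most abundant member, at 1899.6, 3260.5, 2048, 2803 and 2708 in Control and 4734, 5219, 5037, 3383 and 4612 in AdCKO. It rose by 0.87 ± 0.162 (adjusted p = 4.95e-04, limma), although its spread was wide and the lowest AdCKO library was only just above the highest Control library. Rplp2 was 547, 879, 716, 791 and 755 in Control and 684, 737, 947, 646 and 682 in AdCKO. The ranges lay on top of each other and the change was 0.01 ± 0.133 (adjusted p = 0.975, limma), or 0.49 at the same total.

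In the small subunit, 26 of 30 members were called higher (86.7%, against 25.6% of all genes). Of the others, 1 was called lower (3.33%, against 28.0%) and 3 were not called, and the median change was 0.59. Rps3a1 (chr3:85941862-85946590, minus strand, mm9), which sits near the mRNA exit, rose the most. It was 387, 359, 368, 311 and 401 in Control and 684, 684, 761, 721 and 597 in AdCKO. The groups were far apart, with a change of 0.92 ± 0.086 (adjusted p = 1.78e-06, limma). Rpsa, which is also known as the laminin receptor, went from 288 to 343 in Control to 494 to 592 in AdCKO, a change of 0.78. Rps15, the most abundant small subunit mRNA, rose from 2237 ± 232 to 3137 ± 217, a change of 0.49. Rps6, the protein that S6 kinase phosphorylates, was chosen after its values were seen and rose from 356 ± 21.3 to 563 ± 40.1.

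Rps19 went the other way. The protein is needed to mature the small subunit and is the one most often mutated in Diamond-Blackfan anemia. Rps19 (chr7:25669733-25674821, plus strand, mm9) was 594, 843, 839, 674 and 709 in Control and 557, 506, 510.3, 536 and 546 in AdCKO. All 5 AdCKO libraries were below all 5 Control libraries, although AdCKO replicate 1 and Control replicate 1 were close. The mean fell from 732 ± 108 to 531 ± 22.3, a change of -0.45 ± 0.096 (adjusted p = 0.00127, limma), but its direction depended on the scaling: it was 0.03 where the libraries had the same total (adjusted p = 0.777) and -0.25 under quantile normalization (adjusted p = 0.0257). It was -0.46 with the 3 libraries high in muscle genes left out (adjusted p = 0.0185, limma). No unspliced copy of its coding sequence was found in the genome, and no annotated gene overlapped its exons.

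**Figure D3:**
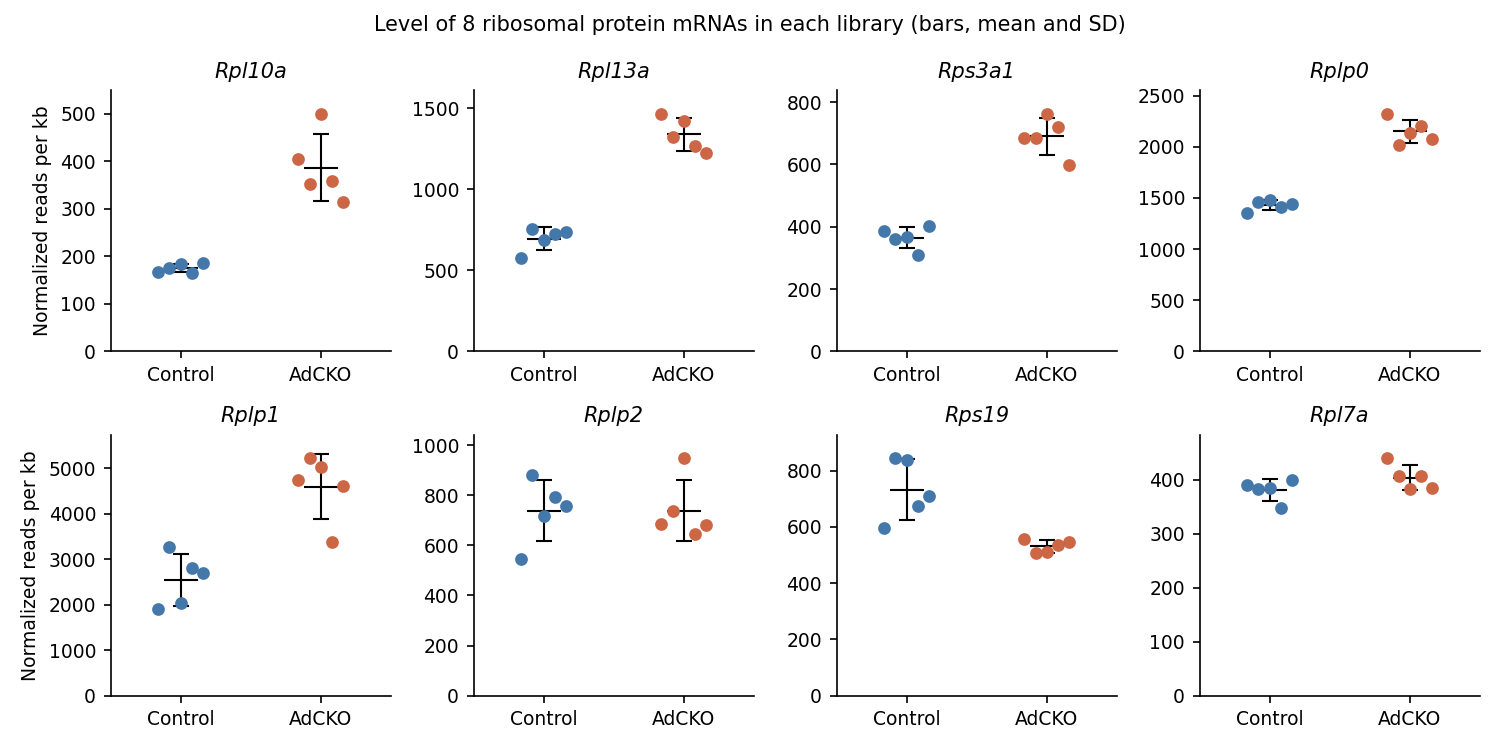
Level of 8 members in each library (normalized reads per kb, 1 point per library, bars for mean and SD, axes from 0). Rpl10a, Rpl13a, Rps3a1, Rplp0 and Rplp1 are higher in all 5 AdCKO libraries than in all 5 Control libraries, Rplp2 and Rpl7a overlap, and Rps19 is lower without overlap on the authors' scale (its change is 0.03 at the same total).

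To ask which members moved unequally, the median core member of each library was subtracted from all genes, which takes the scaling between libraries out of the result. Relative to this median, 58 of the 83 members were not called, 5 were higher and 20 were lower. Of all genes, 9.86% were higher and 66.6% lower. The 5 were Rpl22l1 (0.54), Rpl10a (0.53), Rpl13a (0.36), Rps3a1 (0.33) and Rpl10 (0.31). Only Rpl10a and Rpl13a among them passed the test with each library left out in turn, and only Rpl10a passed with the 3 AdCKO libraries high in muscle genes left out.

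Rps19 was the farthest below the median member, at -1.04 ± 0.096 (adjusted p = 2.23e-07, limma). It was followed by Rpl7l1 (-0.85), Rps27l (-0.70), Rps19bp1 (-0.66) and Rpl23a (-0.64), and Rplp2 (-0.58) and Rpl7a (-0.50) were also lower. Low read numbers were frequent on this side. They also occurred among the risen members outside the core, where Rpl22l1 and Rpl39l had a mean of 30.2 and 25.9 normalized reads in Control. Of the 8 tested core members with fewer than 50 normalized reads per Control library, 5 were lower relative to the median and 2 were called higher in the comparison of groups. Of the 67 with at least 50 reads, 12 were lower and 4 higher relative to the median, and 55 were called higher in the comparison of groups. Rpl26, Rpl30 and Rpl34 were counted over 23, 43 and 79 bases, and their values rest on few reads. With the 3 libraries high in muscle genes left out, 1 member was higher and 10 were lower relative to the median.

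The 8 genes outside the core fell into 3 kinds. The first were paralogs that were higher in AdCKO. Rpl22l1, which can take the place of Rpl22, was 60.8, 54.7, 89.9, 54.3 and 56.8 in Control and 135, 146, 187, 136 and 96.3 in AdCKO. The groups did not overlap, although Control replicate 3 stood above the other Control libraries. It rose by 1.13 ± 0.173 (adjusted p = 1.05e-04, limma) and Rpl22 itself by 0.42 ± 0.075, so that the level of Rpl22l1 per kb was 23.6 ± 5.32% of that of Rpl22 in Control and 39.0 ± 8.44% in AdCKO, with overlap between 27.7 and 31.3%. Rpl39l, a form best known from male germ cells, was lower in level and rose from 32.2 ± 10.4 to 74.4 ± 20.3, a change of 1.21. As a share of Rpl39 it was 15.5 to 32.6% in Control and 22.1 to 60.2% in AdCKO, so the groups overlapped. Rpl36al, at 404 ± 21.5 and 546 ± 93.6, rose by 0.42. Its level was above that of its namesake in every library, at 178 to 204% of Rpl36a in Control and 134 to 197% in AdCKO.

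Rpl3l, which replaces Rpl3 in striated muscle, was high in the libraries that were high in muscle genes. It was 5.92 to 7.99 in Control, and 38.2, 98.2, 5.30, 43.2 and 6.61 in AdCKO replicates 1 to 5. Replicates 1, 2 and 4 stood above all Control libraries, and replicates 3 and 5 did not. As a share of Rpl3 the level was 1.60 to 1.93% in Control, 7.42, 22.1 and 9.11% in AdCKO replicates 1, 2 and 4, and 1.17 and 1.56% in replicates 3 and 5. The change of 1.63 ± 0.637 was not called (adjusted p = 0.0393, limma). Rpl3 itself rose by 0.27, from 382 ± 28.9 to 463 ± 34.6 (adjusted p = 0.00613, limma), a call that was lost when any of 6 of the libraries was left out in turn.

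**Figure D4:**
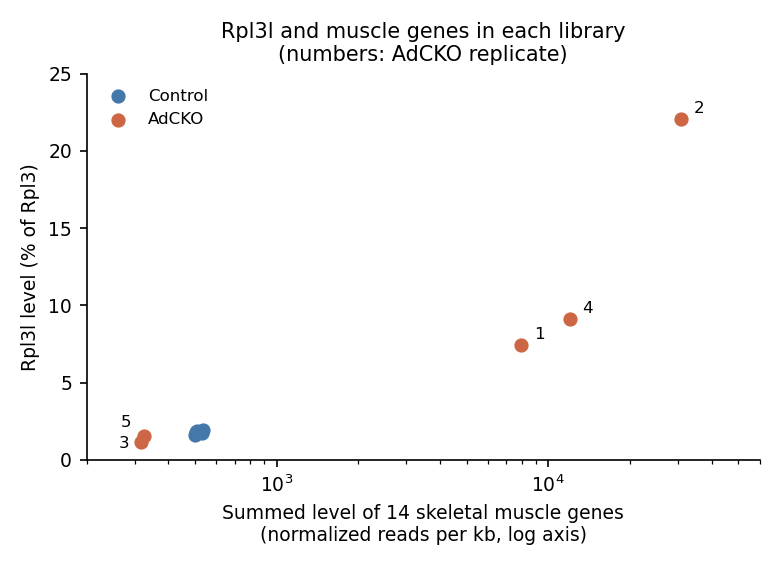
Level of Rpl3l as a percent of Rpl3 against the summed level of 14 skeletal muscle genes (normalized reads per kb, log axis), with 1 point per library and AdCKO replicates numbered. AdCKO replicates 1, 2 and 4 stand apart at 7.42 to 22.1%, and AdCKO replicates 3 and 5 lie with the Control libraries between 1.17 and 1.93%.

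The last kind was not called higher on the authors' scale, although Rps27l (0.37) and Rps19bp1 (0.41) were at the same total in every library. Rpl7l1, a nucleolar relative of Rpl7, was 199.8 to 249.8 in Control and 172 to 210.2 in AdCKO, a change of -0.26 ± 0.079 that missed the threshold (adjusted p = 0.0106, limma) and was 0.22 at the same total. Rpl7 rose by 0.41. The level of Rpl7l1 was 41.3 ± 4.49% of that of Rpl7 in Control but 25.9 ± 3.72% in AdCKO, without overlap. Rps27l, a target of p53, was 603 ± 28.0 and 560.1 ± 44.5. Rps19bp1 is not a ribosomal protein but a partner of Rps19 and of the deacetylase Sirt1, and was 150.2 ± 11.5 and 143 ± 12.6. Rpl31-ps12 is annotated as a pseudogene of Rpl31, and both overlapped between the groups. Levels were 133 ± 25.1 and 153 ± 23.4 for Rpl31-ps12 and 42.1 ± 4.38 and 48.1 ± 5.44 for Rpl31. Rpl31-ps12 was thus above Rpl31 in every library, and how reads were assigned between them was not tested.

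Levels differed far more between members than between genotypes. Control means of the core members ranged from 5.81 for Rpl21 to 2544 for Rplp1 normalized reads per kb, with a median of 396 and quartiles of 195 and 733, although their proteins are needed in nearly equal number. The position of a member in this order said little about its change (Spearman 0.09 over 75 core members, a description across genes). Ribosomal protein genes have many processed copies, and reads that match a copy equally well can be lost or shared. In the mm9 genome, 67 of 82 searched members had at least 1 unspliced copy covering 90% of the coding sequence at 95% identity, with a median of 4 and a maximum of 55, for Rpl21. The search needed a minimum alignment score, so copies of short coding sequences, such as those of Rpl39 and Rps29, could be missed. The 11 core members in which no copy was found had a median Control level of 560. The 13 with at least 10 copies had one of 182. Across 75 core members the number of copies went with a lower level (Spearman -0.41) and not with the size of the change (Spearman -0.04 over 74), both as descriptions across genes of the same libraries. The levels of members with copies, Rpl7a with 20 and Rpl23a with 18 among them, are therefore uncertain.

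Exons of 10 members overlapped another annotated gene, 9 of them on the opposite strand, and whether the counting used the strand is not stated. Among these were Rpl12, Rps25, Rps27a and Rpl23a, and reads from both genes cannot be told apart there. The members lay on 19 chromosomes, with the most, 14, on chromosome 7.

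Outside the naming rule, the ribosome constituents Gnb2l1 and Fau were called higher. Gnb2l1 encodes Rack1, a scaffold on the small subunit, and rose from 899 ± 38.7 to 1534 ± 202 (change 0.76). Fau, whose product is cleaved to the small subunit protein S30, rose from 633 ± 68.6 to 909 ± 29.5 (change 0.53). Rps27a, a member whose product is a small subunit protein made as a fusion with ubiquitin, was chosen after its values were seen and rose from 404 ± 42.9 to 734 ± 77.5.

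The counts and changes for the lists that follow are on the authors' scale, where 25.6% of all genes were called higher and 28.0% lower. At the same total in every library the median over all genes was 0.46, against -0.01 here. The direction of a fall named below can therefore depend on the scaling. Of 42 factors of large subunit assembly, 19 were higher (45.2%) and 2 lower, with a median of 0.24. Gnl3, which encodes nucleostemin, rose by 1.02, Rrs1 by 0.73 and Pak1ip1 by 0.53, while Nvl fell by 0.54 and Las1l by 0.27. Of 52 factors of small subunit assembly, 22 were higher (42.3%) and 5 lower, with a median of 0.21. Nop58, a core protein of the particles that methylate ribosomal RNA, rose by 0.97 and Wdr43 by 0.65. On the authors' scale the complex that makes pseudouridine was split. Nop10 fell by 0.82 and Dkc1 by 0.21, while Gar1 rose by 0.71 and Nhp2 by 0.38. The last pair was chosen after their values were seen. Imp4 fell by 0.54. Of 18 genes of the nucleolus and RNA polymerase I, 5 were higher (27.8%), a share near that of all genes, and 0 lower, with a median of 0.19. They included Myc, a driver of ribosome production, which went from 26.3 ± 6.44 to 153 ± 18.9 normalized reads per kb (change 2.52), Npm1 (1.08) and Ncl (0.58). Whether these lists differ from the translation factors was not tested.

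Of 35 initiation factors, 11 were higher (31.4%, against 25.6% of all genes) and 4 lower, with a median of 0.09. Eif4a1, the helicase, rose by 0.63 and Eif4g3 by 0.68, whereas Eif4g1, the main scaffold, fell by 0.65 and Eif3l by 0.59. Of 10 genes listed for elongation and termination, 5 were higher and 0 lower, with a median of 0.24. The 5 included Eef1e1 (0.51), which was listed by its symbol and whose part in elongation was not checked. Eef1b2 rose by 0.47, Eef1g by 0.49 and the recycling factor Abce1 by 0.31. Of 11 proteins that meet the nascent chain, 3 were higher (27.3%, near the share of all genes), Btf3, Naca and Dnajc2, with changes of 0.24 to 0.41. With the 3 libraries high in muscle genes left out, 12 large subunit and 14 small subunit assembly factors, 4 genes of the nucleolus list, 8 initiation factors, 3 elongation and termination factors and 0 nascent chain proteins were called higher, where 18.8% of all genes were.

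Of 32 genes of the mTOR pathway and of TOP mRNA control, 12 were lower (37.5%, against 28.0% of all genes), 2 were higher and 18 were not called, with a median of -0.13. At the same total in every library 19 were higher and 4 lower, shares near the 60.6% and 9.77% of all genes, so no direction of the list is read from these counts. On the authors' scale Mtor fell by 0.75, Pdcd4, an inhibitor of Eif4a1, by 1.04, and Eif4ebp2, which holds back Eif4e, by 1.05. The higher ones were Rragd (1.78), a Rag GTPase, and Eif4ebp3 (0.39). Rragd was low, at 7.65 ± 2.17 in Control and 29.0 ± 9.49 in AdCKO, and passed the filter only through its level in AdCKO. Over all lists outside the members, 175 genes were called higher and 5 lower at the same total in every library. There, 60.6% and 9.77% of all genes were. On the authors' scale 69 were higher and 24 lower, against 25.6% and 28.0% of all genes. Calls thus moved with the scaling both in the lists and in all genes.

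**Figure D5:**
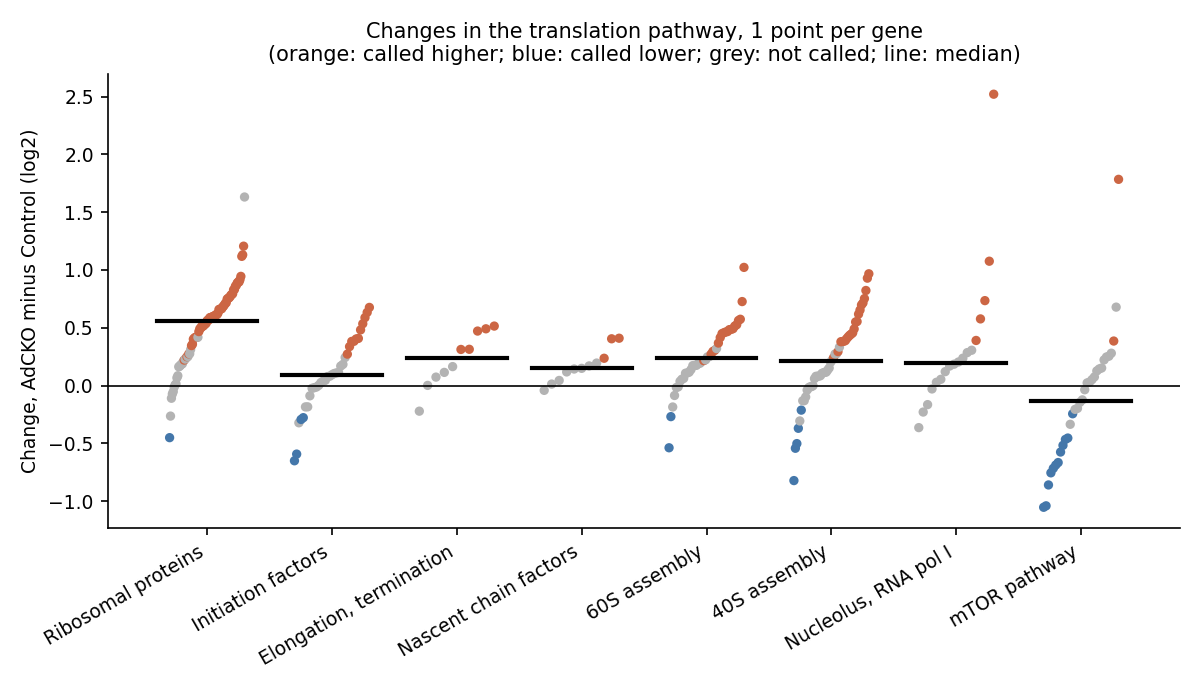
Change between AdCKO and Control (log2) of each tested gene in the ribosomal protein set and in 7 further lists of the translation pathway, with orange for called higher, blue for called lower, grey for not called and a line at each median. The ribosomal protein median of 0.56 lies above those of the assembly lists (0.24 and 0.21) and of the initiation factors (0.09), and the mTOR list has a median of -0.13.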

How the data were processed

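RNA was sequenced from 10 libraries of brown adipose tissue, 5 Control and 5 AdCKO, and groups and replicate numbers were taken from the labels. The authors aligned reads to mm9 with STAR, built tag directories with HOMER, used iRNA-seq to count reads in exons and DESeq2 for normalization; versions are not given in the sources used here. The deposited signal is a normalized number of reads per kb of counted exon, so no count test was run. The depth before normalization is unknown, and no counting intervals were given. The authors' own columns of fold changes and p-values and their lists of changed genes were not used.

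Values were tested as log2(value + 1) with limma 3.58.1 in R 4.3.3 (trended variance), for genes with a mean of at least 10 in a group, at an adjusted p under 0.01, the cutoffs of the study. The same fit was run after subtracting the median core member of each library. Single values were compared with the exact two-sided permutation test. Shares were reads per kb multiplied by counted length, over the library sum. Processed copies were searched with minimap2 2.31, and other steps used Python 3.11.15. On simulated data for 10604 genes of the comparison of AdCKO with Control, 18 of 37 genes with a log2 change of 0.5, 69 of 77 with a change of 1 and 73 of 73 with a change of 2 were recovered, and 3 of 10417 unchanged genes were called. The simulation changed far fewer genes than were called in the data and gave both groups the spread of Control. Its recovery rates therefore need not hold for the real comparison.

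Named members were the 5 leading called members in each direction, by p and by size of change, the 5 most abundant, the stalk genes and Rpsa, paralogs with their namesakes, and the 5 with the smallest p in each direction relative to the median member. From each other list came up to 3 with the smallest p and up to 3 that went against the rest. Other names are said to be chosen after their values were seen or stand for a stated property. The members and lists were chosen with earlier results of these data known. Alternatives were other pseudocounts, filters, scalings and variance models, a replicate block, a length correction, another threshold, and each library left out in turn. Leaving out 3 libraries high in muscle genes, and limits on counted bases and reads, were chosen after seeing the data. The values of 1 gene of the lists are not reported here. Same-numbered libraries of the groups did not deviate together.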

Additional observations from a re-analysis of the deposited data

Results flagged for a closer look

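Of 60 groups of 5 values examined among the named members and shares, 1 held a value far from the others, and chance alone gives such a value in about 1 of 20 groups. Rpl22l1 in Control replicate 3 was 89.9 normalized reads per kb, whereas the other 4 Control libraries lay between 54.3 and 60.8, a gap of 0.816 of the range of the group. The AdCKO libraries remained above it, the lowest at 96.3.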

How the results depend on the processing

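With each library left out in turn, 54 to 60 members were called higher and 1 to 2 lower, the median change was 0.52 to 0.59, the ratio of shares was 2.01 to 2.11, 2 to 7 members were higher and 17 to 23 lower relative to the median member, and 60 to 69 genes of the other lists were higher and 22 to 28 lower. Over the same fits 2643 to 2887 of all genes were called higher and 2880 to 3066 lower, of 11214 to 11264 tested. The second member called lower was Rpl7l1, without Control replicate 3 or AdCKO replicate 5. Members higher relative to the median were 2 without Control replicate 2 and 3 without Control replicate 4, Control replicate 5 or AdCKO replicate 4. Rplp2 changed sign without Control replicate 1 (-0.10), Control replicate 3 (-0.00096) and AdCKO replicate 3 (-0.09), within a range of -0.098 to 0.073, and with array quality weights (-0.043).

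At the same total in every library 0 members were lower and the median was 1.04. In the other lists 175 genes were higher and 5 lower there, where 60.6% and 9.77% of all genes were. The signs of Rps19 (0.030), Rpl7l1 (0.22), Rps27l (0.37) and Rps19bp1 (0.41) turned there. Quantile normalization gave a median of 0.74, 10 members higher relative to the median, and 0.099 for Rps27l. Removing the trend with counted length gave a median of 0.69, 0.048 for Rps27l and 0.077 for Rps19bp1. With array quality weights 2 members were lower, where 3311 of all 11244 genes were, and 9 members were higher relative to the median. The latter count was also 9 without a filter and 9 with a mean of at least 1, and it was 12 with the mean of the core members in place of their median. At an adjusted p of 0.05, 2 members were lower and 11 were higher relative to the median. The share of all genes at that threshold is not given here, so these counts are not read alone. With the 3 AdCKO libraries high in muscle genes left out, 0 members were lower, 1 was higher and 10 were lower relative to the median, and the changes of Rps19bp1 (0.054) and Rpl31-ps12 (-0.0046) turned sign. Fewer libraries were tested there. The ratio of shares was 1.68 without the 100 most abundant other genes. The cause of the other differences was not tested.

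With a replicate block, 55 members were called higher and 2 lower, where 2592 and 2838 of all 11244 genes were. Relative to the median, 3 members were higher. The numbers share no stated litter or batch, and the correlation of same-numbered libraries ranged from -0.268 to 0.098. No Control library correlated best with the AdCKO library of its own number.

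Depth before normalization is unknown, which limits what can be said of the 12 members with fewer than 50 normalized reads in Control. The libraries are from different mice, and the cell composition of the tissue differed between the groups.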
